A study of Zea mays with 6 samples.

Results

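The 78 genes described here encode the cyclins, the cyclin-dependent kinases (CDKs) and the mitotic regulators of the maize ovary, among 25368 rows of the deposited expression table. A row was taken when it had no transcription factor family and when its *Arabidopsis* symbol named a cyclin of type A, B or D, a CDK of type A to G, a CDK subunit (CKS), a KRP or SIM/SMR inhibitor, WEE1, a retinoblastoma-related protein (RBR), an Aurora kinase, a spindle checkpoint protein, CDC20, CCS52 or KNOLLE, or when its description began with cyclin A, B or D. The rule itself uses no measured value, though the members were chosen with earlier results of these data known. Symbols of 14 classes were found, and 2 classes of the rule (SIM/SMR and KNOLLE under that symbol) had no row. A further 2 rows, GRMZM2G033359 and GRMZM2G053338, met the rule only because AUR3 is also an alias of GH3.2, an auxin-conjugating enzyme. They are counted among the 78 but belong to no class, and their FPKM were 0.930 and 1.89 in *ifc* against 0.812 and 1.87 in WT.

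Ovaries whose carpels had not fully closed (*ifc*) were compared by RNA-seq with wild-type (WT) ovaries, with 3 libraries of each phenotype, in the inbred line Yu-A474, grown without stress and collected before pollination, with glumes, lemma and palea removed. The labels give the genotypes as wild type and IFC mutant. According to the methods, however, normal and *ifc* ovaries stood side by side in the middle of an ear and those of a set shared an ear, so that WT and *ifc* are phenotypes on plants of the same line. The study describes the trait as partly penetrant and, from crosses, as probably recessive. The table holds 1 FPKM (a fragment count scaled to transcript length and sequencing depth) for each phenotype, computed by the authors from the exonic reads of the 3 libraries together. No spread between libraries can therefore be given for any value below, no difference was tested, and depth in reads is not known from the table.

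The cell cycle of plants is driven by CDKs that act only when bound to a cyclin. D-type cyclins with CDKA phosphorylate RBR and so release the E2F factors that open S phase, A-type cyclins act mainly in S phase, and B-type cyclins with the plant-specific CDKB act at the passage from G2 into mitosis. KRP proteins and the kinase WEE1 hold CDKs back, and the anaphase-promoting complex, with its activators CDC20 and CCS52, removes the cyclins. In a young ovary these genes serve the divisions that form the carpel wall and the ovule, and they also serve endoreduplication, in which DNA is copied without division.

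The markers of the organ were measured in both phenotypes. Of 23 rows for carpel and ovule identity genes (matches of AG, SHP2, STK, SEP2, SEP3, CRC, SPT, INO, BEL1 and ANT), 0 were listed at 0, their summed FPKM was 3323 in *ifc* and 3680 in WT, and 3 were higher in *ifc*. Rows that mark other tissue or cells were also measured: 22 rows of photosynthetic tissue summed to 576.1 and 633.5, 12 rows of meiosis to 67.66 and 78.03, and 2 rows of pollen and anther to 4.162 and 3.713, again in *ifc* and WT, with 0 of them listed at 0. Since only 24 rows of the whole table were listed at 0 in either phenotype, the lack of such rows does not show presence. The part of other tissue or cells in the differences below was not tested. A single row, GRMZM2G070931, accounts for 55.6% of the WT total although *ifc* has a listed value of 0 for it, and the values were used on the authors' scale.

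The cell cycle genes as a whole had much the same levels in both phenotypes. Of the 78 rows, 39 were higher and 39 lower in *ifc*, the median difference was 0.00 in log2(FPKM + 1), *ifc* minus WT, and the range ran from -1.22 to 0.59. Among all rows 48.7% were higher in *ifc*, with a median of -0.01. The FPKM of *ifc* + 1 and of WT + 1 were within 1.2-fold of each other in 60 of the 78 rows (76.9%), against 74.7% of all rows. Across the 78 rows the order of the levels in *ifc* and WT had a Spearman rho of 0.978 (0.984 across all rows), a description over rows that share the same libraries. In these bulk samples fewer cells of a type and less RNA per cell cannot be told apart.

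A row was called when FPKM + 1 differed by more than 1.5-fold and FPKM was above 2 in *ifc* or WT. The minimum was passed by 69 of the 78 rows, of which 2, both AUR3 matches, passed only through WT, and 9 rows stayed below it. Only 1 member was called higher in *ifc* (1.45% of the 69), where 3.0% of the 21093 rows tested over the table were called higher. In the other direction 3 members were called lower (4.35%), against 1.62% of all tested rows. This count rests in part on the AUR3 match GRMZM2G107645 (1.92 in *ifc*, 3.46 in WT). That row passed the minimum only through WT, where it is higher. With the plain ratio of FPKM 2 members were called higher (4.12% of all rows) and 3 lower (2.51%), and at 2-fold in FPKM + 1 0 members were higher (0.882% of all rows) and 1 was lower (0.427%). Where a difference of 25% in FPKM + 1 was enough, 6 members were higher (8.91% of all rows) and 7 lower (8.01%). The member called higher was the CKS2 match AC149818.2_FG004, and those called lower were the KRP7 match GRMZM2G154414, the CYCD3;2 match GRMZM2G107377 and the AUR3 match GRMZM2G107645. The members just inside the fold were AC149818.2_FG004, with a ratio of 1.51 in FPKM + 1, and GRMZM2G107645, with 1.53. Just outside it were the CYCB1;4 match GRMZM2G062453, with 1.48, and the KRP3 match GRMZM2G037926, with 1.42.

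**Figure D1:**
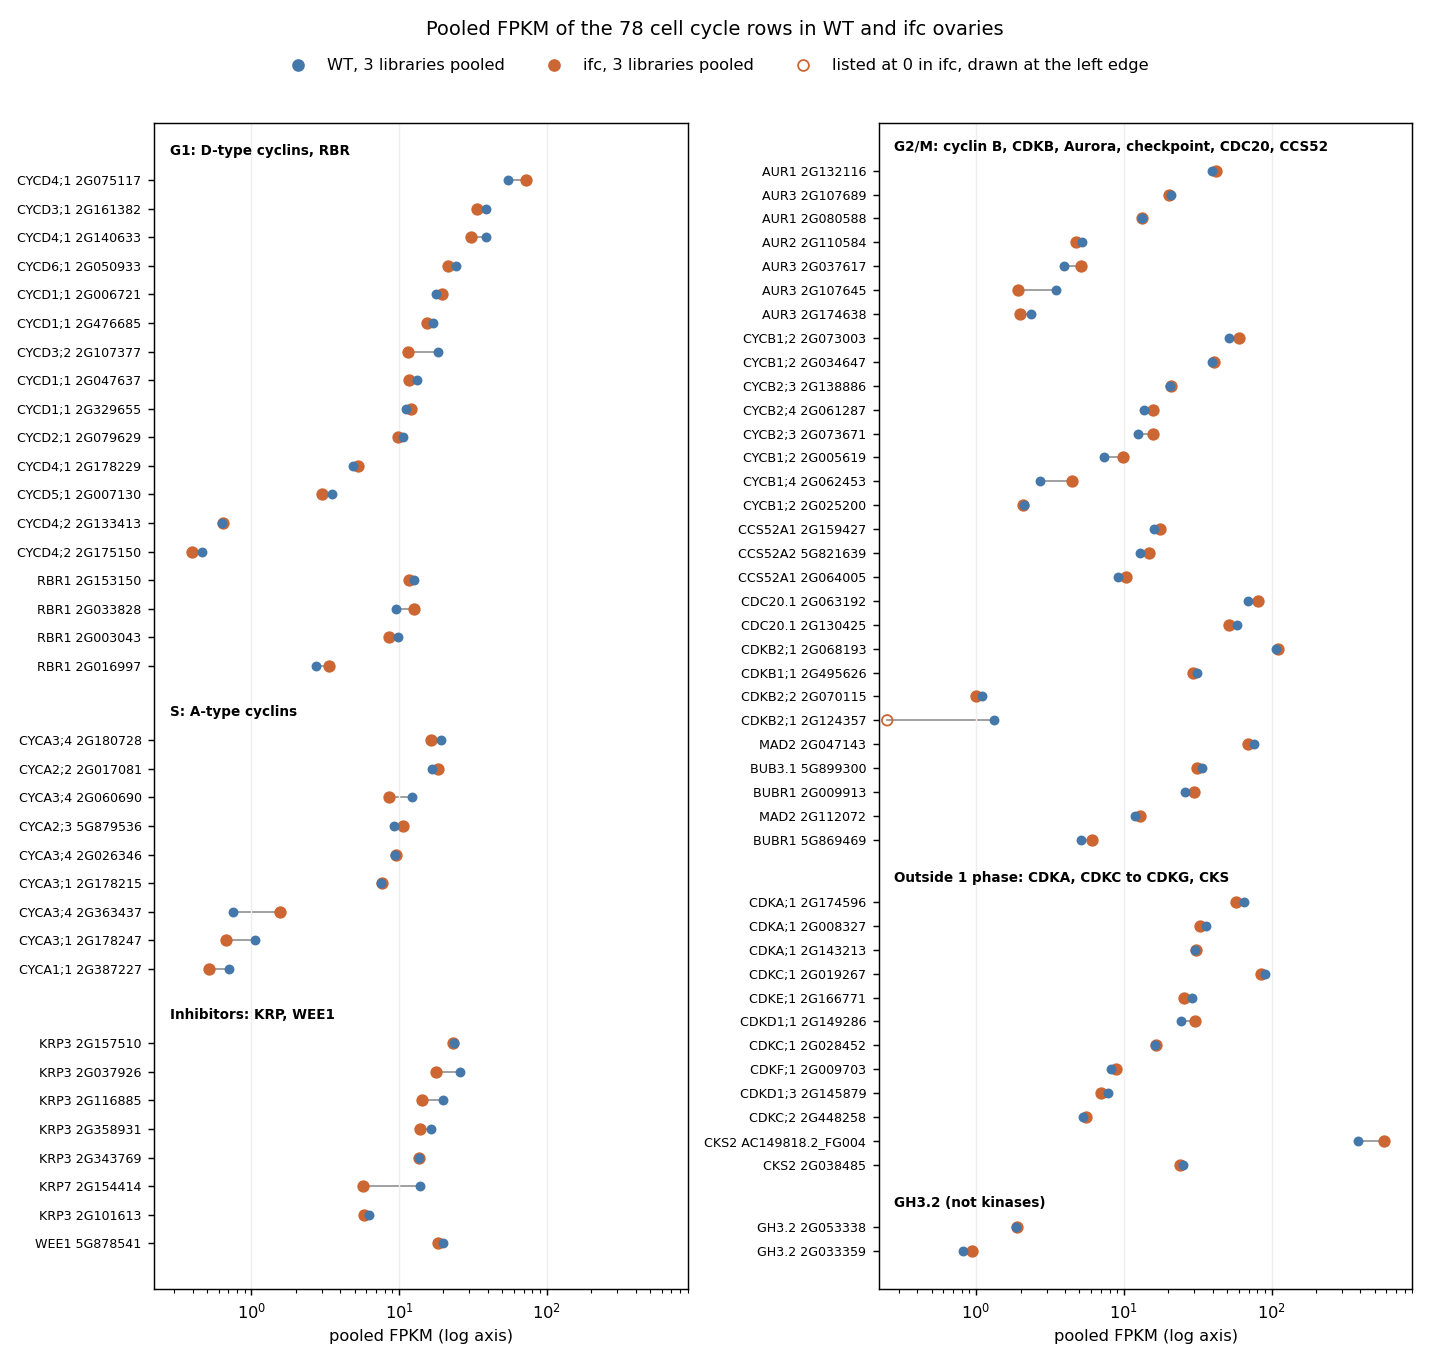
Pooled FPKM of each of the 78 rows in WT (blue) and *ifc* (orange) on a log axis, by phase group and, within a group, by class and mean level, with each row named by its *Arabidopsis* match and its maize identifier without the prefix GRMZM. The points of a row lie close together for most members, and the widest distances are those of the KRP7 row (5.70 in *ifc*, 13.8 in WT), of CYCA3;4 2G363437 (1.56 and 0.756) and of the CDKB2;1 row listed at 0 in *ifc* (open circle).

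The G1 genes, 14 D-type cyclins and 4 RBR rows, were lower in *ifc* in 11 of 18 rows, with a median log2 difference of -0.10. Of the D-type cyclins 5 were higher and 9 lower, with a median of -0.12, and their summed FPKM was 247.7 in *ifc* and 254.6 in WT. D-type cyclins are the cyclins that answer to sugar, hormones and other growth signals. The row with the largest difference was the CYCD3;2 match GRMZM2G107377 (chr7:49750259-49752394, B73 RefGen_v3, plus strand). Its FPKM was 11.5 in *ifc* against 18.5 in WT, which is 1.61-fold higher in WT and -0.64 in log2(FPKM + 1). In *Arabidopsis* the CYCD3 cyclins are known for keeping lateral organ cells in division and for delaying the start of endoreduplication. The other CYCD3 row, the CYCD3;1 match GRMZM2G161382, had 33.7 in *ifc* and 39.0 in WT, below the fold of 1.5.

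The cyclin D row of highest level moved the other way. The CYCD4;1 match GRMZM2G075117 (cycD2 in RefSeq) had FPKM 72.1 in *ifc* against 54.5 in WT, a ratio of 1.32. A second CYCD4;1 match, GRMZM2G140633, had 31.0 and 39.0, and the third, GRMZM2G178229, 5.31 and 4.86. None of the 3 passed the fold, and their sum was 108 in *ifc* and 98.4 in WT. The 4 CYCD1;1 matches lay between 11.2 and 19.5 FPKM in both phenotypes, 2 higher and 2 lower in *ifc*, with sums of 58.7 and 59.2. The remaining rows held CYCD2;1 (9.89 in *ifc*, 10.6 in WT), CYCD5;1 (2.99 and 3.55), CYCD6;1 (21.5 and 24.3) and 2 rows of CYCD4;2, all under 0.7 FPKM.

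The RBR proteins are the targets of the cyclin D kinases and the repressors of the E2F factors. All 4 rows matched *Arabidopsis* RBR1, and 3 carry maize names in RefSeq. GRMZM2G033828 (rbr3) had FPKM 12.7 in *ifc* against 9.49 in WT, a log2 difference of 0.38. GRMZM2G016997 had 3.36 and 2.72. GRMZM2G153150 (RBR2) had 11.7 and 12.7, and GRMZM2G003043 (RBR1) had 8.51 and 9.80. The family was thus split, 2 rows higher and 2 lower, none was called, and the sums were 36.3 in *ifc* and 34.7 in WT.

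The inhibitors were lower in *ifc* in 7 of 8 rows, with a median log2 difference of -0.17, where 51.3% of all rows were lower. Of the 8 rows 5 were within 1.2-fold in FPKM + 1. KRP proteins bind the complexes of CDKs with D-type cyclins and block their kinase activity. The KRP7 match GRMZM2G154414 (chr4:5410266-5411691, minus strand) had FPKM 5.70 in *ifc* against 13.8 in WT. It was 2.42-fold higher in WT, -1.14 in log2(FPKM + 1), the largest difference among the 69 members above the minimum. The other 6 KRP rows all matched KRP3. GRMZM2G037926 had 17.9 in *ifc* and 25.9 in WT, a log2 difference of -0.51, and GRMZM2G116885 (cki1 in RefSeq) had 14.4 and 19.7, a difference of -0.43. Neither passed the fold.

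The rest of the KRP3 matches differed less. GRMZM2G358931 had FPKM 13.9 in *ifc* against 16.6 in WT, and GRMZM2G101613 (cki2 in RefSeq) had 5.77 and 6.29. GRMZM2G157510, the KRP3 row of highest level, had 23.3 and 23.6, and GRMZM2G343769 had 13.6 in both, the only KRP row with a positive difference (0.01). The 7 KRP rows together summed to 94.66 FPKM in *ifc* and 119.4 in WT, with a median log2 difference of -0.24. Of the 7, 1 was called lower, where 1.62% of all tested rows were, and 7 rows are too few to read against that share. WEE1, a kinase that inhibits CDKs by phosphorylation and acts in the DNA damage checkpoint of *Arabidopsis*, had 18.5 in *ifc* and 19.8 in WT (GRMZM5G878541).

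**Figure D2:**
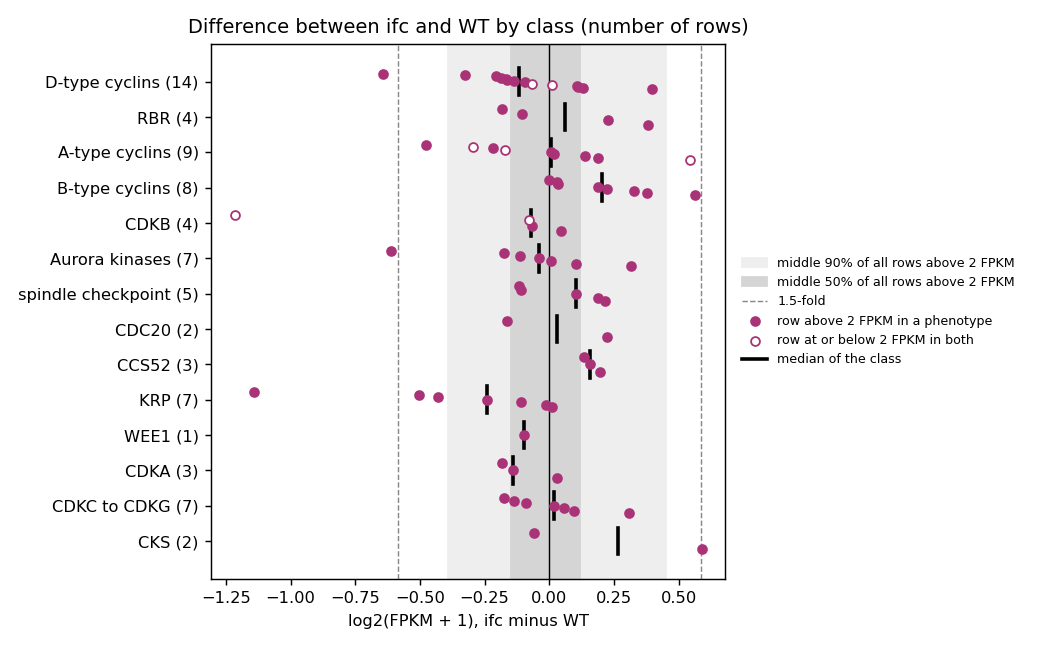
Difference in log2(FPKM + 1), *ifc* minus WT, of the 76 rows in the 14 classes, with filled points for rows above 2 FPKM in *ifc* or WT, open points for rows at or below it in both, and a black bar for the median of a class. The grey bands hold the middle 50% and 90% of all table rows above 2 FPKM and the dashed lines mark 1.5-fold; B-type cyclins lie at or above 0 (median 0.20) and 6 of 7 KRP rows lie below it (median -0.24).

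The S-phase group consisted of 9 A-type cyclins, of which 5 were higher and 4 lower in *ifc*, with a median log2 difference of 0.01 and 0 calls. The CYCA2 cyclins, which in *Arabidopsis* hold back endoreduplication, were slightly higher: the CYCA2;2 match GRMZM2G017081 had FPKM 18.4 in *ifc* against 16.6 in WT, and the CYCA2;3 match GRMZM5G879536 had 10.7 and 9.24. The 4 CYCA3;4 matches went in both directions. GRMZM2G060690 had 8.59 in *ifc* and 12.3 in WT (-0.48 in log2), and GRMZM2G180728, the A-type row with the highest WT level, had 16.5 and 19.4. GRMZM2G026346 had 9.50 and 9.46, and GRMZM2G363437 had 1.56 and 0.756, below the minimum of 2 FPKM. Their sum was 36.2 in *ifc* and 41.9 in WT. The 2 CYCA3;1 matches are neighbours on chromosome 9 with 2.1 kb between them. GRMZM2G178215 had 7.71 and 7.61 and GRMZM2G178247 had 0.677 and 1.06, and RefSeq gives both identifiers to 1 locus. The CYCA1;1 match was below 1 FPKM in both phenotypes.

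The G2/M group had 29 rows, 18 of them higher and 11 lower in *ifc*, with a median log2 difference of 0.05. The B-type cyclins, the mitotic cyclins proper, were higher in 7 of 8 rows with a median of 0.20, and their FPKM summed to 169.9 in *ifc* and 150.1 in WT. None was called. The CYCB1;4 match GRMZM2G062453 had the largest difference, with 4.49 in *ifc* and 2.71 in WT. The plain ratio was 1.65, past 1.5, while the ratio of FPKM + 1 (1.48) was not.

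The 4 CYCB1;2 matches spanned a wide range of levels. GRMZM2G073003 had FPKM 60.3 in *ifc* against 51.5 in WT, GRMZM2G034647 (cyc1 in RefSeq) 40.6 and 39.8, GRMZM2G005619 9.89 and 7.37, and GRMZM2G025200 2.09 in both. Of these GRMZM2G005619 differed most, by 0.38 in log2(FPKM + 1). The CYCB2;3 matches GRMZM2G073671 (cyc3 in RefSeq) and GRMZM2G138886 had 15.8 and 20.9 in *ifc* against 12.4 and 20.4 in WT, and the CYCB2;4 match had 15.8 against 13.7. Of the B-type cyclins 5 of 8 rows (62.5%) were within 1.2-fold in FPKM + 1, against 74.7% of all rows. GRMZM2G025200 was the row without a higher value in *ifc*.

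The CDKB kinases, partners of the B-type cyclins, had 1 row higher and 3 lower in *ifc*. The CDKB2;1 match GRMZM2G068193 was the most abundant member of the G2/M group, with FPKM 111 in *ifc* against 107 in WT, and the CDKB1;1 match GRMZM2G495626 had 29.6 and 31.1. The CDKB2;2 match was near 1 FPKM in both. The second CDKB2;1 row, which joins the identifiers GRMZM2G124357 and GRMZM2G425189, was listed at 0 in *ifc* and had 1.32 in WT, under the minimum of 2, so that no fold is given for it. It is the member with the lowest log2 difference, -1.22, and 24 rows of the whole table were listed at 0 in either phenotype.

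The Aurora kinases, which act at centromeres, spindle and cell plate, had 3 rows higher and 4 lower. The AUR1 matches had FPKM 42.3 and 13.3 in *ifc* and 39.4 and 13.2 in WT. The row matched to AUR2, GRMZM2G110584, is described in the table as a leucine-rich repeat protein and had 4.75 and 5.22. The 4 AUR3 matches form a cluster of 94.9 kb on chromosome 1 (chr1:280531552-280626429, B73 RefGen_v3). They are separated by 21.6, 25.4 and 26.3 kb, with 0, 3 and 1 other table rows between them.

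Within this cluster the levels were unequal. GRMZM2G107689 had FPKM 20.3 in *ifc* against 20.9 in WT and so carried 69.3% of the AUR3 sum in *ifc* and 68.3% in WT. GRMZM2G107645, the first gene of the cluster, had 1.92 and 3.46, 1.80-fold higher in WT and -0.61 in log2(FPKM + 1), and was called lower. GRMZM2G037617, at the other end, had 5.13 and 3.92, and GRMZM2G174638 had 1.98 and 2.36. The end genes thus differed in opposite directions, and the sum over the 4 rows was 29.4 in *ifc* and 30.7 in WT. RefSeq lists GRMZM2G107689 and GRMZM2G174638 as names of 1 locus. Rows of similar sequence can share reads, but the sequences of these rows were not compared. How the authors' correction for multi-mapped reads divided any shared reads among these rows is not known, which makes the values of the single rows uncertain.

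**Figure D3:**
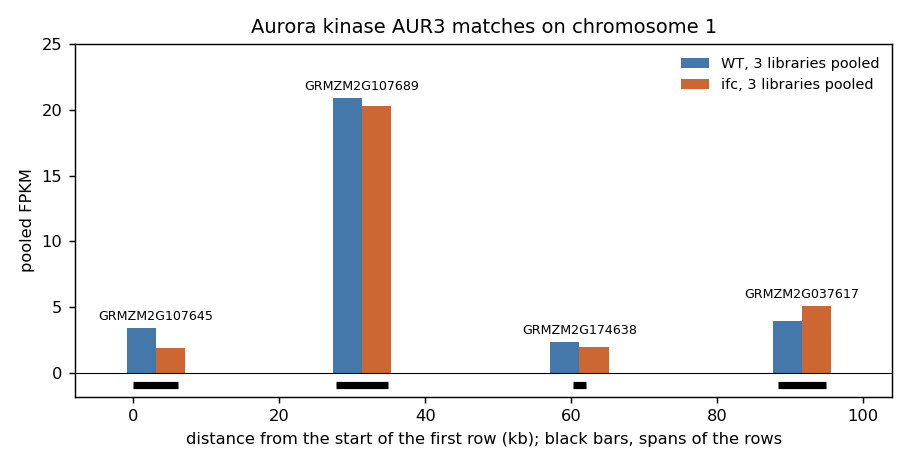
Pooled FPKM in WT (blue bars) and *ifc* (orange bars) of the 4 rows matched to AUR3, against the distance in kb from the start of the first row on chromosome 1, with black bars below the axis for the spans of the rows. GRMZM2G107689 exceeds the others about equally in both phenotypes (20.9 and 20.3), GRMZM2G107645 is lower in *ifc* (1.92 against 3.46) and GRMZM2G037617 is higher (5.13 against 3.92).

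The proteins that time the end of mitosis differed little. The 5 spindle checkpoint rows were all within 1.2-fold in FPKM + 1. MAD2, which keeps CDC20 inactive until chromosomes are attached, had a major row with FPKM 69.7 in *ifc* against 75.7 in WT (GRMZM2G047143) and a minor row with 12.9 and 11.9. The BUBR1 matches had 29.7 and 6.10 in *ifc* against 26.0 and 5.11 in WT, and BUB3.1 had 31.2 against 33.8. The CDC20.1 match GRMZM2G063192 had 80.9 and 69.2, and its paralog GRMZM2G130425 had 51.7 and 58.0, in opposite directions. The 3 CCS52 rows, activators of the anaphase-promoting complex that are known in *Arabidopsis* for promoting endoreduplication, were each somewhat higher in *ifc*, with log2 differences of 0.13 to 0.20. None of these 10 rows was called.

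Outside 1 phase stood 12 rows: CDKA, the CDKs of types C to F and the CKS subunits, 6 higher and 6 lower in *ifc* with a median log2 difference of -0.02. CKS proteins are small subunits that dock CDKs on substrates already phosphorylated. The CKS2 match AC149818.2_FG004 (chr9:152702463-152704421, plus strand) was the most abundant member, at FPKM 576 in *ifc* against 382 in WT, and 99.5% of all rows had a lower mean. Its ratio was 1.51 in FPKM and its log2 difference 0.59. The second CKS2 match, GRMZM2G038485, had 24.2 and 25.3, so that the paralogs differed 19.4-fold in mean level and were opposite in sign.

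AC149818.2_FG004 accounted for the higher sum of the members in *ifc*. The 78 rows summed to 2100 FPKM in *ifc* and 1926 in WT, of which the CKS rows made up 28.6% and 21.2%. Without AC149818.2_FG004 the sums were 1523 and 1543. The share of the KRP rows was 6.20% in WT and 4.51% in *ifc*, of sums that include AC149818.2_FG004. The higher value of that row in *ifc* therefore makes up part of this difference. The KRP rows themselves summed to 119.4 FPKM in WT and 94.66 in *ifc*.

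The kinases themselves had even levels. The 3 CDKA;1 matches, the main CDK of the plant cell cycle, had FPKM 57.2, 32.8 and 30.8 in *ifc* and 65.1, 36.2 and 30.2 in WT (GRMZM2G174596, GRMZM2G008327 and GRMZM2G143213), with sums of 121 and 132. CDKC and CDKE act in transcription. The CDKC;1 match GRMZM2G019267 had 84.8 and 90.3, and the CDKE;1 match had 25.6 and 29.1. CDKD and CDKF activate other CDKs. The CDKD1;1 match GRMZM2G149286 had 30.2 in *ifc* and 24.2 in WT, 0.31 in log2(FPKM + 1), while the CDKD1;3 match had 7.0 and 7.78 and the CDKF;1 match 8.83 and 8.21. All 7 rows of types C to F were between -0.18 and 0.31 in log2(FPKM + 1).

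Most members belong to sets of paralogs: 20 *Arabidopsis* matches had several maize rows (56 rows in all) and 22 had 1. In a set the levels could differ widely, as for CYCB1;2, where the highest mean FPKM was 26.7 times the lowest, or little, as for CYCD1;1 (1.60 times). In 5 of the 20 sets all rows went in 1 direction, and each of these had 2 rows, 1 of them being the GH3.2 pair below the minimum. KRP3 had 5 of 6 rows lower in *ifc*, with sums of 89.0 in *ifc* and 106 in WT, and CYCB1;2 had 3 of 4 higher, with 112.9 and 100.8. The CYCD4;1, CYCA3;4, RBR1 and CDC20.1 sets each had rows in both directions.

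The members were also compared with other genes of cell division, as lists of matches to *Arabidopsis* genes. Of 53 DNA replication rows, 38 were higher in *ifc* with a median log2 difference of 0.22, and 7 of the 49 above the minimum were called higher and 0 lower, against 3.0% and 1.62% of all tested rows. The largest were matches of ORC6 (GRMZM5G825512), of the origin recognition complex, with FPKM 9.03 in *ifc* against 4.15 in WT, of RPA2 (GRMZM2G445958), a binder of single-stranded DNA, with 30.8 and 16.4, of SLD5 (GRMZM2G164325), of the replicative helicase, with 13.0 and 6.91, and of the licensing factor CDT1 (GRMZM2G035665), with 26.6 and 15.2. Of 68 histone rows, 47 were higher with a median of 0.21, and 12 of the 65 above the minimum were called higher and 0 lower, against the same shares of all rows. The histone row GRMZM2G084195 had 518 and 192. The 9 A-type cyclins had a median of 0.01, and 0 of their 6 rows above the minimum were called, which is too few rows to read against these shares. Whether the lists differ was not tested.

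The 4 other lists of cell division had medians nearer to that of the members than DNA replication and histones had. Of 31 spindle and cytokinesis rows 21 were higher in *ifc* with a median of 0.06, of 14 chromosome segregation rows 8 (median 0.03), and of 8 rows of the anaphase-promoting complex 3 (median -0.03). Of the 22 cell cycle transcription factor rows, which include the E2F and DP factors under RBR, 7 were higher (median -0.09). By its own criteria and family assignment, the study counts some E2F/DP genes as lower in *ifc*. Whether those genes are in this list, which was taken by *Arabidopsis* symbol, was not looked at. These 4 lists had 30, 13, 8 and 21 rows above the minimum, and 0 calls in either direction. Over all tested rows 3.0% were called higher and 1.62% lower, and these lists are too short to read against those shares. As a list outside the cell cycle, 154 of 186 rows of cytosolic ribosomal proteins were higher in *ifc*, with a median of 0.17. Of their 183 rows above the minimum 1 was called higher (0.546%) and 0 lower. The carpel and ovule rows had a median of -0.11, and of 21 above the minimum 0 were called higher and 1 lower (4.76%). That row, the INO match GRMZM2G046829, had 2.50 in *ifc* and 4.51 in WT.

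**Figure D4:**
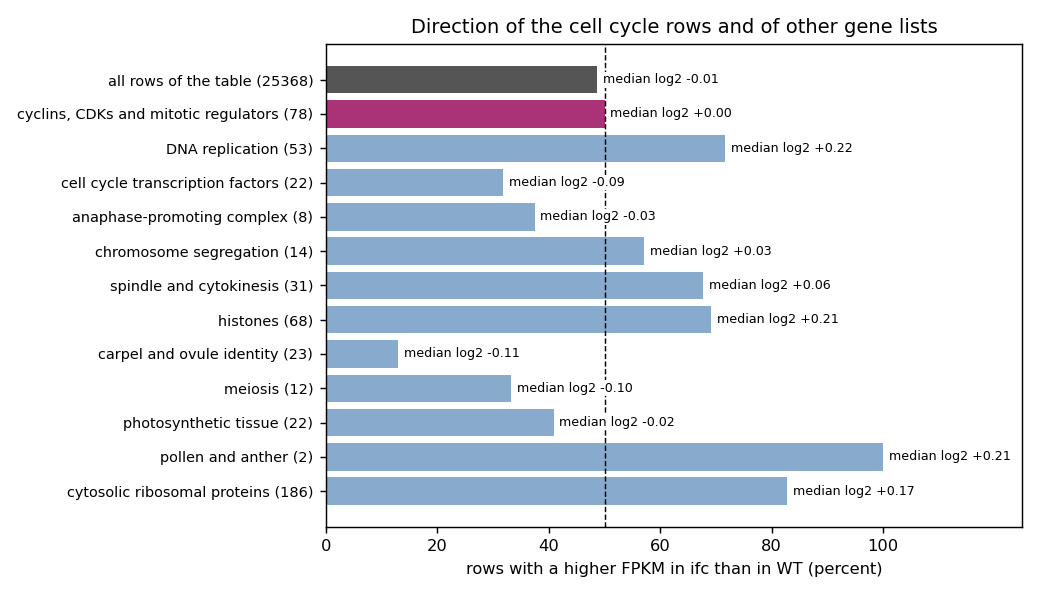
Percent of rows with a higher FPKM in *ifc* than in WT for all rows, for the 78 cell cycle rows and for 11 other lists, with the number of rows in brackets, the median difference in log2(FPKM + 1) beside each bar and a dashed line at 50%. The cell cycle rows stand at 50%, next to 48.7% of all rows, with DNA replication (71.7%), histones (69.1%) and ribosomal proteins (82.8%) above and carpel and ovule identity (13.0%) below.

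The members lie on all 10 chromosomes, with 19 on chromosome 1 and 10 on chromosome 9, and the AUR3 cluster and the CYCA3;1 pair are the neighbours of the same match within 100 kb. By the GO terms given in the table, 46 of 78 (59.0%) were placed in the nucleus, against 6.88% of all rows, 22 (28.2%) in cell division, against 0.252%, 19 (24.4%) in the regulation of the cell cycle, against 0.209%, and 13 (16.7%) in DNA endoreduplication, against 0.122%. The rule chose the members by symbols of such genes, and 7 had no term. In level, 45 of the 78 had at least 10 FPKM in both phenotypes, and 2 (AC149818.2_FG004 and GRMZM2G068193) had at least 100.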

How the data were processed

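Per the methods, rRNA-depleted, stranded, paired-end libraries were aligned with TopHat2 to B73 RefGen_v3. From the exonic reads of the 3 libraries of a phenotype, pooled, the authors computed FPKM in Cufflinks and Cuffdiff, with quartile normalization and with corrections of bias in fragments and of reads that map to several places. The deposited FPKM table has 25368 rows and 1 value per phenotype. Its columns of fold change, log2 ratio, p-value, q-value and significance are the authors' own comparisons and were not used. The planned count and limma tests did not apply, since no value per library was used. Differences are in log2(FPKM + 1), and calls need 1.5-fold in FPKM + 1 and FPKM above 2.

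The members and lists were chosen with earlier results of these data known. Named members are those called, listed at 0, or, in each phase group, the 3 of highest mean or largest difference; the others were added after their values were seen, to account for each class. List symbols shared with another gene (18 rows) were left out. RefSeq names (Zm-B73-REFERENCE-NAM-5.0) matched 63 of 78 identifiers, and no sequence was printed. The work used pandas 2.3.3, numpy 2.4.6, scipy 1.17.1 and, for plots, matplotlib 3.10.9 under Python 3.11.15.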

Additional observations from a re-analysis of the deposited data

How the results depend on the processing

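Of 112 recomputed summary values under 14 alternatives (12 planned, 2 chosen after seeing the data: without the GH3.2 rows, and a minimum on the mean FPKM), 92 stayed on their side or within 1.5 times. Taking 1 row per identifier, members by symbol alone, or no GH3.2 rows could not move any summary. The 78 members have 78 identifiers, 0 were taken by description alone, and the GH3.2 rows are below the minimum. Ignoring the case of symbols and a minimum on the mean FPKM also left every summary unchanged. The count of 92 therefore says little about how stable the results are. The summaries over rows above the minimum are 1 called higher, 3 called lower, 50.7% higher and a median of 0.01. The count called higher was 2 with no pseudocount or with 0.1, where the CYCB1;4 match GRMZM2G062453 joined at 0.72 and 0.70 on the log2 scale, 6 where a difference of 25% was enough, and 0 at a fold of 2 or with the totals made equal without the highest row, where the CKS2 match AC149818.2_FG004 fell to 0.55. The count called lower was 7 at a difference of 25% and 1 at a fold of 2 (KRP7). It was 4 with no FPKM minimum and 2 with FPKM above 10, where the AUR3 match GRMZM2G107645 is left out. The largest changes came from setting both phenotypes to the same total FPKM, which moves the log2 of a plain FPKM ratio by 1.13 (less in log2(FPKM + 1) at low levels), since GRMZM2G070931 holds 55.6% of the WT total. Then 68 members were called higher and 0 lower, 98.6% were higher, the median was 1.05, and the rows higher were 16 in G1, 7 in S, 28 in G2/M, 7 among inhibitors and 12 outside 1 phase. The called AUR3 match GRMZM2G107645 and CYCD3;2 match GRMZM2G107377 reversed to 0.22 and 0.42, while the KRP7 match GRMZM2G154414 was at -0.14. In S the number higher was 2 with FPKM above 10 and with equal totals without the highest row. Among inhibitors it was 2 when centred on the median of all rows (-0.02) and 0 with equal totals without the highest row. No paired analysis was possible because the deposited table pools the 3 libraries of a phenotype, and for the same reason no replicate could be left out. The table gives FPKM without counts, so no counting error was computed for small differences at low FPKM.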

Other observations

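Other cell cycle genes lay outside the rule by their symbol. KNOLLE, the syntaxin of the forming cell plate, is listed under KN and SYP111, and its 3 rows had FPKM 30.1, 43.5 and 9.09 in *ifc* against 24.7, 38.8 and 9.05 in WT (GRMZM2G131525, GRMZM2G100478 and GRMZM2G168017). The RAD9 match GRMZM2G133986, of the DNA damage checkpoint, had 17.1 and 10.9, 1.57-fold higher in *ifc* and past the fold used for the members. It was the only row looked at here that was called, where 3.0% of all tested rows were called higher. A row described as Cyclin4, GRMZM2G310115, had 72.8 and 72.5. The transcriptional cyclins of type T and H were within 1.2-fold, as in the CYCH;1 match GRMZM2G361662 with 6.83 and 8.02. These rows were chosen after their values were seen.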
